A study of Homo sapiens with 9 samples.

Results

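U-87 cells treated with evernic acid (EA) and temozolomide (TMZ) together were compared with untreated cells: 6 of the 9 samples in the series, chosen by their labels. The 3 combinations were EA35TMZ320 (35 µM EA and 320 µM TMZ), EA20TMZ380 (20 µM EA and 380 µM TMZ) and EA20TMZ580 (20 µM EA and 580 µM TMZ), each for 24 h and each a single sample, beside 3 samples of untreated controls. The combinations were taken as 1 group although they differ in dose and are not replicates, so the spread within the group holds dose differences. The labels do not say whether the controls were separate cultures, so p-values measure only the spread between these samples, which may be technical.

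U-87 is an established human glioblastoma line. TMZ is an alkylating drug used against glioblastoma; it methylates DNA bases, and cells answer with repair, cell cycle arrest or death. EA is a small phenolic compound made by lichens, a depside. The RNA was read from the 3′ ends of polyadenylated transcripts, so that each transcript gives reads near its end only, and reads were counted per RefSeq accession.

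The controls held 269057, 259753 and 285248 counts. EA35TMZ320 held 213566 counts, EA20TMZ380 367291 and EA20TMZ580 330759. EA35TMZ320 was thus the shallowest of the 6 samples, and a count of 0 allows up to 3 counts as far as counting error goes. In CPM, counts scaled to a common library size, 3 counts are 8.17 in EA20TMZ380, 9.07 in EA20TMZ580 and more in EA35TMZ320. Of 159067 accessions in the table, 4735 had a count in any of the 6 samples.

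Which genes could be seen depended on their place in the genome, and this bears on every gene name below. Genes of core cell machinery (ribosome, respiratory chain, proteasome, translation factors, spliceosome, RNA polymerase II and mitochondrial import) are used by dividing cells at large, and 165 listed genes, chosen after the counts were seen, had a single coding accession in the table, so that no other accession of the gene could share their reads. Of 6 stretches at chromosome starts, those on chromosomes 6 and 18 held none of these genes. In the others, 10 of 11 such genes had 100 or more counts over the 9 samples, with a median of 7507. Elsewhere 3 of 154 did, and 124 were at 0. Without 10 members used in few tissues, such as PSMB11 and COX8C, it was 3 of 144, with 115 at 0.

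The stretches, chosen after the counts were seen, run in the RefSeq positions of GRCh38.p14 from the start of chromosome 5 to 46 Mb, of chromosome 6 to 26 Mb, of chromosome 9 to 39 Mb, of chromosome 11 to 1 Mb, of chromosome 18 to 15 Mb and of chromosome 19 to 7 Mb. On chromosome 19, UQCR11 (15809 counts), TIMM13 (5171), MRPL54 (1544) and EEF2 (80055) lie inside the stretch, where LSM7 alone of 6 core genes was at 0. Beyond it, 0 of 16 core genes reached 100 counts and 13, RPS28 and EIF3G among them, were at 0. RPS6 on chromosome 9 had 104209 counts and RPLP2 on chromosome 11 86361, whereas RPS12, RPL4, RPL30 and EEF1A1, which lie outside the stretches, were at 0. How the counting treated reads that match several places in the genome is not given in the sources used here. Over all genes with a single coding accession, 67 of 213 (31.5%) in the stretches and 129 of 4949 (2.61%) elsewhere had 100 or more counts. On chromosome 6 it was 10 of 33 in the stretch and 5 of 277 in the rest. On chromosome 18 it was 6 of 13 in the stretch and 2 of 42 in the rest.

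**Figure D1:**
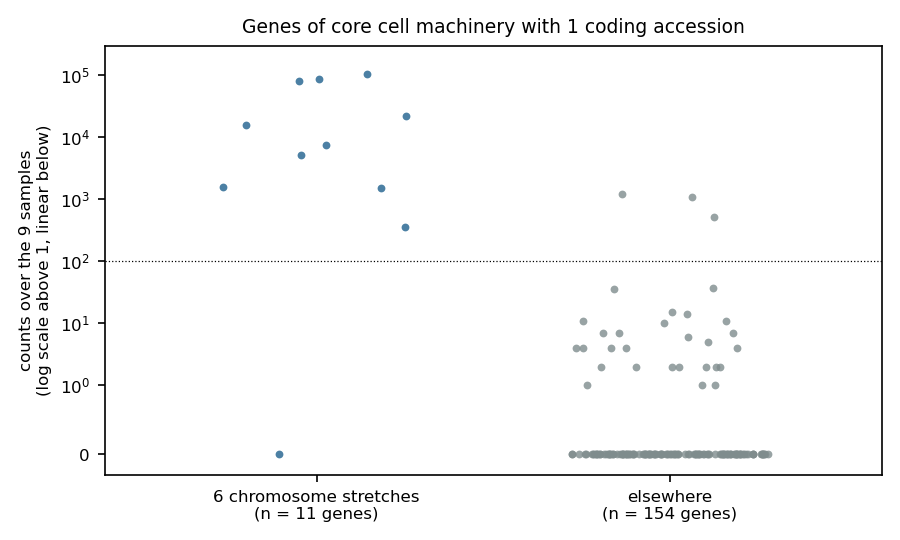
Counts over the 9 samples (vertical axis, log scale above 1) of 165 genes of core cell machinery with a single coding accession, each point a gene; the dotted line is at 100 counts. In the 6 chromosome stretches 10 of 11 genes lie above the line, elsewhere 3 of 154.

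The submitters' processing notes name the genome build hg38, and the annotation used for counting is not given in the sources used here; the cause of the pattern was not tested. Genes of the mitochondrial genome and of the 6 stretches are therefore described first. For a gene elsewhere, a value is given as counts under its accession, and whether those reads came from that gene was not tested. The cell type could not be checked by its markers: of 10 markers of glioblastoma and astroglia, NES alone had counts, and GFAP, VIM, CD44, EGFR and SOX2 were at 0, as were all markers of neurons, oligodendrocytes, leukocytes and fibroblasts; of 3 endothelial markers VWF had 1 count, in EA20TMZ580. VIM and SOX2 have a single accession, whereas GFAP, CD44 and EGFR have several, and accessions that share a 3′ end can lose reads in the counting.

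Against the controls, the combinations held a larger share of counts on the mitochondrial genome. They held less MIR210HG, SOX4 and ANKH, and more TNFSF9, LURAP1L and DLGAP1-AS2. LINC00668, TALDO1 and MYDGF were also higher, but each lost its call when single controls were left out. With a mean of at least 10 counts, 604 transcripts were tested, and 72 (11.9%) had an adjusted p under 0.05 in edgeR's quasi-likelihood test with Benjamini-Hochberg adjustment. Of these 35 (5.79%) were higher and 37 (6.13%) lower in the combinations. DESeq2 called 105 and limma-voom 62. The count rested on the controls: it was 32 without control 1, 24 without control 2 and 24 without control 3, whereas 99 were called without EA35TMZ320.

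By position, 7 of 13 mitochondrial genes, 26 of 130 tested transcripts of the stretches (20.0%), 30 of 363 elsewhere (8.26%) and 9 of 98 with no match to a gene (9.18%) were called. By RefSeq class, 38 of 303 curated coding transcripts, 12 of 91 curated non-coding, 6 of 103 predicted coding and 9 of 94 predicted non-coding transcripts were called. The combinations all lay above or all below the controls for 229 tested transcripts (37.9%), among them all 72 called.

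**Figure D2:**
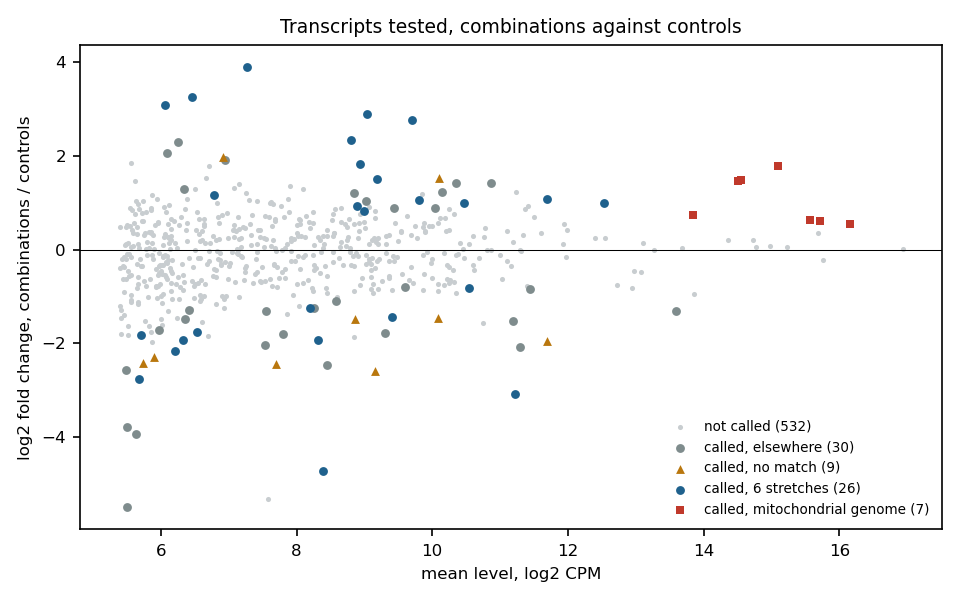
Log2 fold change of the combinations against the controls (vertical axis) and mean level in log2 CPM (horizontal axis) of 604 tested transcripts. Colours mark the 72 called transcripts by position; the 7 mitochondrial genes among them all lie above 0 and the other classes hold rises and falls.

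The mitochondrial genome encodes subunits of the respiratory chain and of ATP synthase, and its RNA is made and polyadenylated inside the organelle. It took 48.6%, 48.4% and 49.1% of all counts in the controls. In EA35TMZ320 it took 54.9% (95% Wilson interval 54.7 to 55.1), in EA20TMZ380 57.4% (57.2 to 57.5) and in EA20TMZ580 58.7% (58.6 to 58.9). Every combination lay above every control, by 8.27 percentage points on average (57.0 ± 1.92 against 48.7 ± 0.340, SD, n = 3 each). The exact permutation test gave p = 0.1 (two-sided), the smallest that 3 samples against 3 allow. Such a share cannot tell more mitochondrial RNA from less nuclear RNA per cell. The share of nuclear counts that fell in the 6 stretches was also higher in every combination than in every control. It differed by 3.55 percentage points on average (exact permutation test, two-sided, p = 0.1).

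The genes did not move alike. ND4L, a small subunit of complex I, had 13219, 17200 and 16783 CPM in the controls after TMM normalization, and 60904, 59430 and 41702 CPM in EA35TMZ320, EA20TMZ380 and EA20TMZ580. Its log2 fold change was 1.78 (SE 0.18, edgeR adjusted p = 0.000323). ND4L overlaps the start of ND4, which rose less, by 0.55 (SE 0.11, edgeR adjusted p = 0.0115). Whether reads under neighbouring mitochondrial genes came from separate transcripts was not tested, so their values may not be separate changes. ND1, the complex I subunit at the membrane near the quinone site, had 10691, 12998 and 14420 CPM in the controls and 34219, 39872 and 32283 CPM in the combinations in the same order, a log2 fold change of 1.48 (SE 0.15, edgeR adjusted p = 0.000375). In both genes the lowest combination was more than 2 times the highest control.

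COX1, the catalytic subunit of complex IV, rose as much, by 1.46 (SE 0.13, edgeR adjusted p = 0.000323), from 12369 ± 1339 to 34041 ± 1508 CPM (SD, n = 3). ND5, CYTB of complex III and ND2 rose by 0.74, 0.64 and 0.61 (edgeR adjusted p = 0.008, 0.0073 and 0.0115). The other 6 genes did not pass. COX2 lay above the controls in all 3 combinations (log2 fold change 0.35, SE 0.11, edgeR adjusted p = 0.072) and passed only without EA35TMZ320 (lowest adjusted p = 0.046, highest 0.536). COX3, the most abundant transcript in the table, had 124446 ± 4362 CPM in the controls and 126382 ± 8514 CPM in the combinations. ATP8, a small subunit of ATP synthase, lay below the controls in all 3 combinations with a log2 fold change of -0.95 (SE 0.32, edgeR adjusted p = 0.0817); it passed with limma-voom, without the filter and without EA20TMZ580 (lowest adjusted p = 0.00277, highest 0.233). COX1, ND1 and ND4L kept their call without each sample in turn (highest adjusted p = 0.00521). Without control 2 they were the only 3 mitochondrial genes called, whereas CYTB kept its call without control 1 or control 3 and ND4 without control 1. Over the left-out controls the highest adjusted p was 0.0646 for ND5, 0.0531 for CYTB, 0.091 for ND2 and 0.0691 for ND4. ND2 and ND4 also missed the threshold without the filter (adjusted p = 0.0603 and 0.117).

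**Figure D3:**
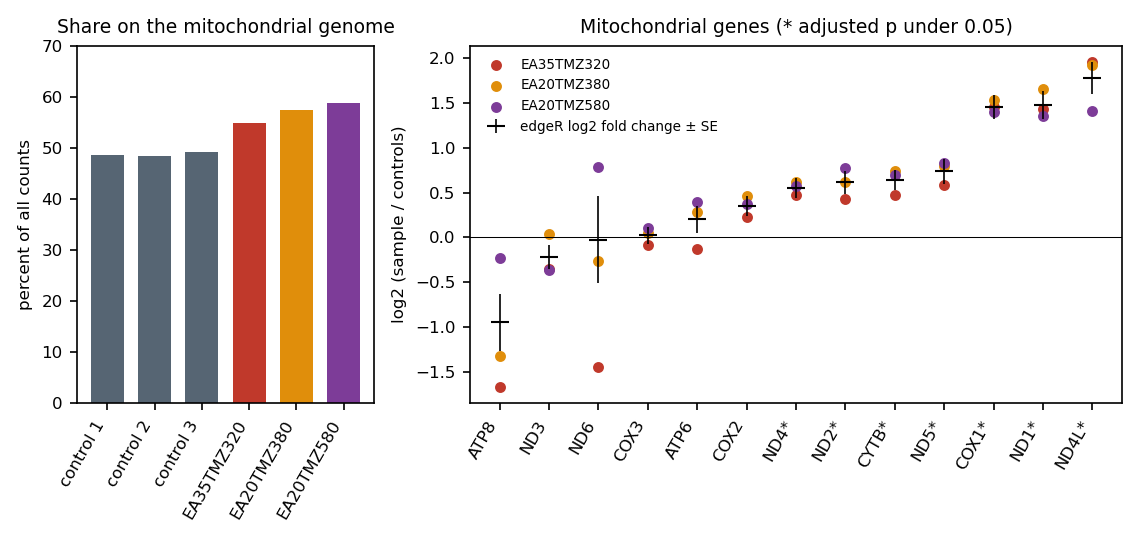
Left, percent of all counts on the mitochondrial genome in each sample. Right, log2 ratio of each combination to the mean of the controls (points) and the edgeR log2 fold change with its standard error (bars) for 13 mitochondrial genes, with stars at the 7 called. COX1, ND1 and ND4L stand highest, and ATP8 lies below 0 in all 3 combinations.

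MIR210HG and SOX4 fell furthest among well-counted nuclear transcripts. MIR210HG is the host transcript of the microRNA MIR210, known for its induction in low oxygen. It had 558, 668 and 676 CPM in the controls (160, 182 and 203 counts). It had 4.94, 37.5 and 22.7 CPM in EA35TMZ320, EA20TMZ380 and EA20TMZ580 (1, 12 and 7 counts). The groups were far apart, with a log2 fold change of -4.74 (SE 0.46, edgeR adjusted p = 0.000323). It was the only 1 of 39 listed genes of hypoxia and glycolysis with enough counts for testing.

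SOX4, a transcription factor of the SOX family tied to stem-like states in glioma, had 4002, 4528 and 4227 CPM in the controls and 227, 732 and 516 CPM in the combinations in the same order. Its log2 fold change was -3.10 (SE 0.36, edgeR adjusted p = 0.000742), with EA35TMZ320 lowest. MIR210HG and SOX4 were called in each of 13 alternatives; without EA20TMZ380 MIR210HG was at -5.34.

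ANKH, a membrane protein that exports ATP and so sets extracellular pyrophosphate, had 446, 536 and 506 CPM in the controls and 64.2, 166 and 149 CPM in the combinations, a log2 fold change of -1.94 (SE 0.36, edgeR adjusted p = 0.00786). It overlaps OTULIN and 4 other annotated genes. ANXA2R, a receptor for annexin A2, fell by 2.17 on the log2 scale (SE 0.46, edgeR adjusted p = 0.0144), from 30, 21 and 43 counts to 4, 10 and 6. It overlaps 2 non-coding genes, and its call was lost without control 1 or control 3 (highest adjusted p = 0.0985). A non-coding transcript of TLE6, a relative of the Groucho corepressors, fell by 2.77 (SE 0.63, edgeR adjusted p = 0.0188), from 13, 17 and 36 counts to 2, 5 and 2; the call was lost with limma-voom, without control 2 and without EA20TMZ580 (highest adjusted p = 0.0683).

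Among the rises, LURAP1L, which resembles an adaptor protein of the actin cytoskeleton, was seen on 2 transcripts. It overlaps LURAP1L-AS1, and without the strand setting of the counting, which is not given in the sources used here, reads of the pair cannot be told apart. Its curated transcript had 237, 217 and 183 CPM in the controls and 2307, 1235 and 815 CPM in EA35TMZ320, EA20TMZ380 and EA20TMZ580, a log2 fold change of 2.77 (SE 0.38, edgeR adjusted p = 0.00187). Its predicted transcript rose by 3.27 (SE 0.61, edgeR adjusted p = 0.00786), from 5, 5 and 3 counts to 53, 42 and 20, and missed the threshold with limma-voom (adjusted p = 0.0645). The curated transcript, named after its values were seen, kept its call in each of 13 alternatives (highest adjusted p = 0.0176). Both ranked the combinations in the same order.

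The long non-coding RNAs DLGAP1-AS2 and LINC00668 lie on the short arm of chromosome 18. DLGAP1-AS2 had 2, 6 and 8 counts in the controls and 114, 46 and 47 in the combinations, a log2 fold change of 3.89 (SE 0.69, edgeR adjusted p = 0.00741). It lies within DLGAP1 on the RefSeq map, so the same limit holds. LINC00668, which overlaps SCML2P1, had 112, 139 and 116 CPM in the controls and 1981, 472 and 321 CPM in the combinations, a log2 fold change of 2.90 (SE 0.63, edgeR adjusted p = 0.0154). Its value in EA35TMZ320 stood far above the other 2 combinations, and the call was lost without any 1 of the controls (highest adjusted p = 0.0952). Without EA35TMZ320 the log2 fold change was 1.77 for LINC00668 and 3.02 for DLGAP1-AS2.

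TNFSF9, a ligand of the TNF family that stimulates T cells, had 94.1, 183 and 160 CPM in the controls and 1161, 563 and 494 CPM in the combinations, a log2 fold change of 2.33 (SE 0.40, edgeR adjusted p = 0.0073). All 3 combinations were at least 2 times the highest control, and the call held in each of 13 alternatives. C9orf72, whose protein takes part in membrane traffic and autophagy, rose by 3.09 (SE 0.85, edgeR adjusted p = 0.0442), from 5, 2 and 4 counts to 53, 12 and 15; it was lost with limma-voom and without any 1 of the controls (highest adjusted p = 0.193), and without EA35TMZ320 it had too few counts for testing.

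**Figure D4:**
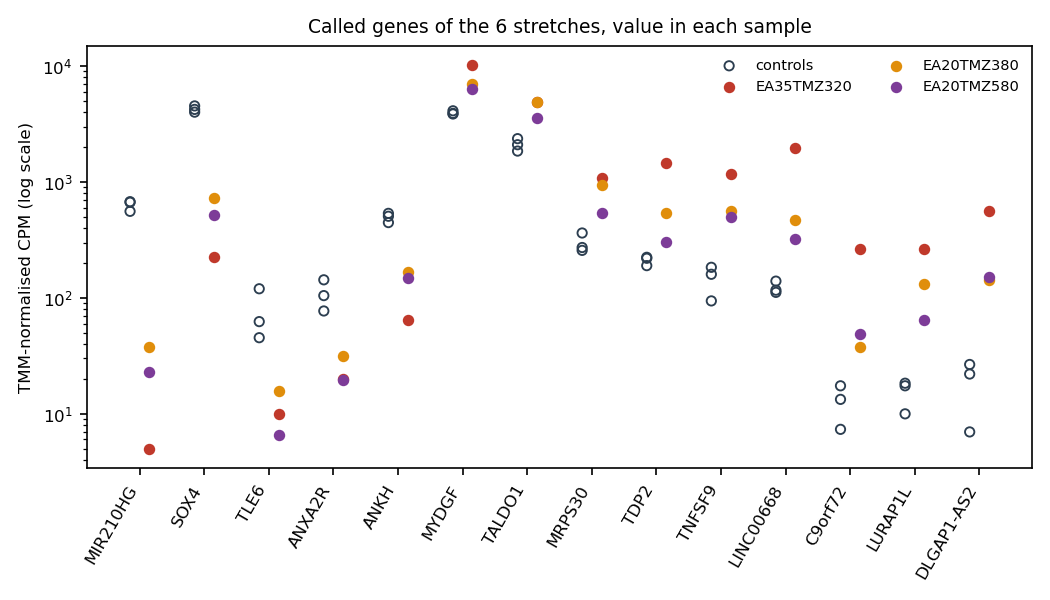
TMM-normalised CPM (log scale) of the named genes of the 6 stretches that were called, in each control (open circles) and each combination (filled circles). The groups do not overlap in any gene, as in all 72 called transcripts and in 229 of 604 tested (37.9%). Most of the genes shown were picked by this rule. EA35TMZ320 is the highest or the lowest sample in most.

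TALDO1, transaldolase of the pentose phosphate pathway, had 2363, 2095 and 1847 CPM in the controls and 4910, 4931 and 3598 CPM in the combinations, a log2 fold change of 1.09 (SE 0.20, edgeR adjusted p = 0.00786). It was lost without control 2 or control 3 (highest adjusted p = 0.0666). MYDGF, a secreted growth factor kept in the endoplasmic reticulum and Golgi, had 3859, 4110 and 3907 CPM in the controls and 10265, 6982 and 6390 CPM in the combinations, a log2 fold change of 0.99 (SE 0.20, edgeR adjusted p = 0.0121). It missed the threshold without any 1 of the controls (highest adjusted p = 0.0769), although each combination lay above all controls.

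MRPS30, a protein of the mitochondrial ribosome, rose by 1.52 (SE 0.31, edgeR adjusted p = 0.0115), with 78, 70 and 109 counts in the controls and 219, 301 and 167 in the combinations; the call was lost without control 1 or control 2 (highest adjusted p = 0.0837). It was the only 1 of 11 tested nuclear genes for mitochondrial proteins that was called (9.09%, beside 11.9% of all tested transcripts), and the median log2 fold change of the 11 was 0.01 beside -0.05 over all tested transcripts and 0.55 over the mitochondrial genome. The 3 tested cytosolic ribosomal proteins were not called. RPS6 had 37368 CPM on average in the controls and 39046 CPM in the combinations, and RPLP2 31185 and 33110 CPM. RPL37, also in a stretch, had far fewer counts than these, and why was not tested. It lay below the controls in all 3 combinations, with 36, 22 and 23 counts in the controls against 13, 13 and 16 (log2 fold change -0.86, SE 0.40, edgeR adjusted p = 0.189).

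For DNA repair, 4 of 92 listed genes could be tested and 1 was called (11.9% over all tested transcripts), TDP2, which removes topoisomerase II from DNA ends. TDP2 had 220, 224 and 190 CPM in the controls and 1447, 538 and 302 CPM in EA35TMZ320, EA20TMZ380 and EA20TMZ580, a log2 fold change of 1.84 (SE 0.50, edgeR adjusted p = 0.0441). It was lost with limma-voom, with a minimum mean of 50 counts and without any 1 of the controls (highest adjusted p = 0.154), and without EA35TMZ320 its log2 fold change was 1.07. FANCG, of the Fanconi anaemia complex that acts on DNA crosslinks, had a log2 fold change of -0.25 (SE 0.21, edgeR adjusted p = 0.469). The other 2, POLQ and ALKBH3, lie outside the stretches and gave 1.00 (SE 0.46, edgeR adjusted p = 0.185) and -0.06 (SE 0.38, edgeR adjusted p = 0.926). Without EA35TMZ320 the log2 fold change of POLQ was 0.38.

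Of 49 listed mitosis genes 2 could be tested, and neither these nor the tested tubulins passed, where 11.9% of all tested transcripts did. The tubulins TUBB6 and TUBB2B, 2 of 39 listed, had log2 fold changes of -0.56 (SE 0.24, edgeR adjusted p = 0.169) and -0.99 (SE 0.47, edgeR adjusted p = 0.189). TUBB6 lay below the controls in all 3 combinations and passed without EA35TMZ320 (adjusted p = 0.0409); it overlaps AFG3L2. NDC80, a kinetochore protein that also lay below the controls in all 3 combinations, had 851, 657 and 742 CPM in the controls and 237, 613 and 542 CPM in the combinations, with a log2 fold change of -0.68 (SE 0.33, edgeR adjusted p = 0.203). PLK1, a mitotic kinase outside the stretches, gave 0.31 (SE 0.22, edgeR adjusted p = 0.389). None of 30 listed p53 targets had enough counts.

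Genes of some other lists are named here after their values were seen; 11.9% of all tested transcripts were called. Of zinc finger genes 0 of 11 were called, of PI3K, AMPK and MAPK signalling 0 of 3 and of transcription by RNA polymerase II 0 of 3; 1, 1 and 2 of these tested transcripts lie in the stretches. Of extracellular matrix and adhesion genes 3 of 5 were called, LAMA1 higher (1.16) and LAMC1 (-1.53) and PCDH7 lower, the last 2 outside the stretches. LAMA1 was lost in 7 of 12 alternatives, among them each left-out control, EA20TMZ380 and EA20TMZ580 (highest adjusted p = 0.276). LAMC1 was lost without control 2, control 3 or EA20TMZ580 (highest adjusted p = 0.0691). Of chromatin regulators 1 of 4 was called and of solute carriers 1 of 16. C3, the central complement protein, fell by 0.82 (SE 0.20, edgeR adjusted p = 0.0281), and IFITM1, an interferon-induced membrane protein with near-identical relatives, fell by 1.44 (SE 0.34, edgeR adjusted p = 0.0212), 1 of 4 tested interferon-induced genes. BST2 of the same list, outside the stretches, lay above the controls in all 3 combinations and did not pass (log2 fold change 0.55, SE 0.24, edgeR adjusted p = 0.174). IFITM2, also on that list, did not pass either. It had 963, 909 and 1049 counts in the controls and 133, 951 and 693 in the combinations, and in CPM it lay below the controls in all 3. C3 was lost without any 1 of the controls, EA20TMZ380 or EA20TMZ580 and without the filter (highest adjusted p = 0.177), and IFITM1 without any 1 of the controls or EA20TMZ580 (highest adjusted p = 0.102). Of 5 tested transcripts of TNF ligands and receptors, TNFSF9 and TNFRSF10D were called, the latter outside the stretches; the main transcript of CD70, another ligand, had 1447, 1457 and 1398 CPM in the controls and 5681, 1935 and 2494 CPM in the combinations (edgeR adjusted p = 0.0528). CD70 passed without any 1 of the combinations and in 5 other alternatives (lowest adjusted p = 0.000268, highest 0.195); its other tested transcript gave -0.22 (SE 0.47, edgeR adjusted p = 0.766). Of 99 tested long non-coding RNAs, 7 rose and 4 fell (11.1% called), with a median log2 fold change of 0.02.

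For the Wnt pathway, 6 of 90 listed genes could be tested, and 1 of these, TLE6, lies in a stretch. FZD7, a receptor for Wnt ligands, and TLE6 were called, both lower, where 6.13% of all tested transcripts were lower. Counts under the accession of FZD7 were 104, 143 and 114 in the controls and 31, 52 and 65 in the combinations, a log2 fold change of -1.26 (SE 0.29, edgeR adjusted p = 0.0194); the call was lost without any 1 of the controls and without EA20TMZ380 (highest adjusted p = 0.12). Of the 10 nearest genes with a single coding accession, 2 had 10 or more counts. Under the accession of TCF7L1, a TCF-family repressor, 2933, 2733 and 3004 counts in the controls stood beside 935, 2807 and 1120 in the combinations (log2 fold change -0.83, SE 0.29, edgeR adjusted p = 0.0879), and 0 of its 10 nearest genes had 10 or more counts. It passed without EA20TMZ380, the combination nearest to the controls, and without the filter (lowest adjusted p = 0.00677). BCL9L (-1.07, SE 0.38, edgeR adjusted p = 0.101), DKK4 (-0.97, SE 0.53, edgeR adjusted p = 0.256) and WNT5A (-0.25, SE 0.27, edgeR adjusted p = 0.577) did not pass. In CPM, FZD7, TLE6, TCF7L1, BCL9L and DKK4 lay below the controls in all 3 combinations, and WNT5A did not. Of all 604 tested transcripts, 129 lay below in this way.

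Other large changes were recorded under accessions outside the stretches, and whether these reads came from the genes named was not tested. TNFRSF10D, a decoy receptor for the death ligand TRAIL, stood at 4093, 4136 and 3974 CPM in the controls and 687, 1176 and 1003 CPM in the combinations (log2 fold change -2.09, SE 0.23, edgeR adjusted p = 0.000515). NES, the intermediate filament of neural progenitors, stood at 530, 620 and 579 CPM and at 109, 138 and 65.0 CPM (-2.47, SE 0.33, edgeR adjusted p = 0.00181). Both were called in each of 12 alternatives, and 2 and 1 of their 10 nearest genes had 10 or more counts. CFAP45, a protein of cilia, was the most abundant nuclear accession called, at 16032, 18822 and 17708 CPM against 4352, 8967 and 7861 CPM (-1.31, SE 0.24, edgeR adjusted p = 0.00786), while 0 of its 10 nearest genes had 10 or more counts.

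NSD3, a histone methyltransferase, fell under its accession by 0.84 (SE 0.22, edgeR adjusted p = 0.0428) and was lost in 6 of 12 alternatives (highest adjusted p = 0.149). PCDH7, SLC22A20P, ZC3H11B and PDK3 fell, with log2 fold changes of -2.05, -3.94, -3.80 and -2.58 (edgeR adjusted p = 0.0115, 0.00786, 0.0184 and 0.0486), the last 3 from 28 counts or fewer in each control; PCDH7 was lost without control 2 (adjusted p = 0.0531) and PDK3 in 5 of 10 alternatives (highest adjusted p = 0.114). SLC22A20P, ZC3H11B and PDK3 passed the minimum mean of 10 counts only through the controls, and the size of their falls hung on single samples. Without EA20TMZ380 PDK3 was at -3.40, and ZC3H11B had 0 counts in both remaining combinations, so its fitted fold has no set size there. Without EA20TMZ580 ZC3H11B was at -3.10 and SLC22A20P at -5.01. ADCY5 had 33, 11 and 20 counts in the controls and 0, 1 and 0 in the combinations, a ratio of 61.8 with an exact counting interval of 10.7 to 2478. That interval covers counting error only, and ADCY5 passed the minimum mean of 10 counts only through the controls. Its fitted log2 fold change was -5.51, and -4.91 without EA20TMZ580. Without EA20TMZ380 both remaining combinations had 0 counts, so a fitted fold has no set size there. LINC03032, LRGUK and LOC105375892 rose by 2.29, 2.07 and 1.91 (edgeR adjusted p = 0.0154, 0.0442 and 0.0194). LINC03032 lost its call without control 1 or control 3 (highest adjusted p = 0.079) and was at 2.88 without control 2, LOC105375892 without any 1 of the controls (0.116), and LRGUK without any 1 of the controls, without EA20TMZ380 and with limma-voom (0.163). The predicted transcript XR_924269.2, with no match to a gene, stood at 5975, 5086 and 4756 CPM and fell to 588, 1554 and 1896 CPM (-1.96, SE 0.36, edgeR adjusted p = 0.00786).

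The 3 combinations did not depart from the controls equally. EA35TMZ320, with the most EA and the least TMZ, lay farthest from the controls for 45 of 72 called transcripts (62.5%) and for 329 of 604 tested (54.5%). EA20TMZ380 lay farthest for 14 and EA20TMZ580 for 11 of the called, and in 2, ADCY5 and ZC3H11B, EA35TMZ320 and EA20TMZ580 tied at 0 counts. The biological coefficient of variation was 0.398 among the combinations and 0.170 among the controls, and in the mitochondrial genome and the stretches alone 0.369 and 0.106. The part of dose, of depth and of chance between single samples in this spread cannot be told apart.

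**Figure D5:**
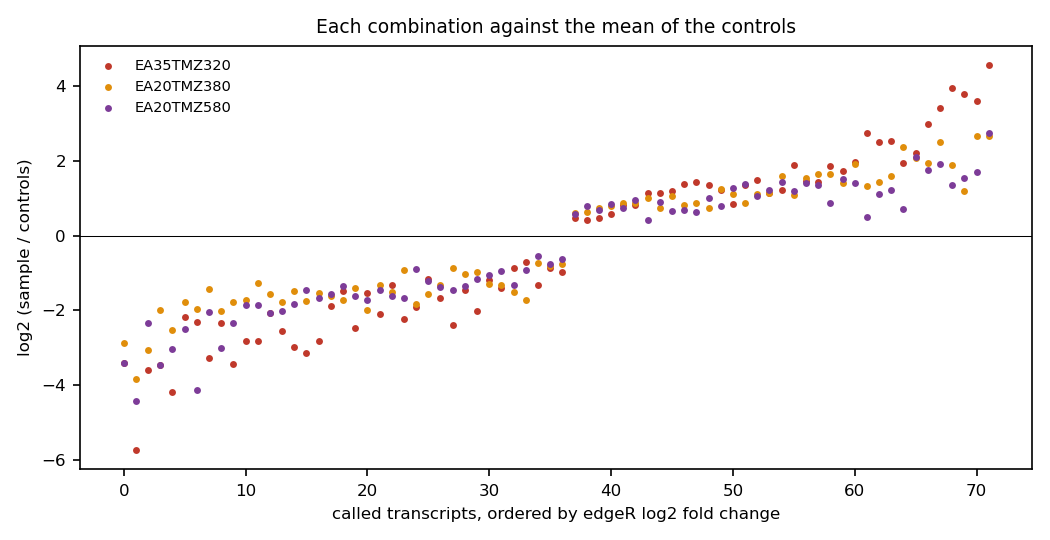
Log2 ratio of each combination to the mean of the controls (vertical axis) for the 72 called transcripts, ordered by the edgeR log2 fold change. The 3 samples lie on the same side of 0 for each transcript, which follows from the lack of overlap with the controls. EA35TMZ320 lies farthest for 45 and ties with EA20TMZ580 in 2.

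Whether the combinations differed from EA or TMZ alone was asked against EA30 (30 µM EA), EA45 (45 µM EA) and TMZ600 (600 µM TMZ) as 1 group. These differ in drug and in dose, are not matched in dose to the combinations, and are 1 sample each. Their biological coefficient of variation was 0.372. Of 621 tested transcripts, 0 (0%) passed in edgeR, DESeq2 or limma-voom, with 16, 20 and 20 at an unadjusted p under 0.05. With such spread in both groups, a lack of calls does not show that the combinations equal EA or TMZ alone. The groups did not overlap for 44 (7.09%). The lowest p belonged to COX1 with a log2 fold change of 0.85 (SE 0.18, edgeR unadjusted p = 0.000885, adjusted p = 0.55), then ND4L with 0.98 (SE 0.24) and ND1 with 0.82 (SE 0.21). These same 3 mitochondrial genes passed when the fit held only the mitochondrial genome and the stretches, an alternative chosen after seeing the data (adjusted p = 0.0135, 0.0153 and 0.0153). The mitochondrial share was 58.2% in EA30, 54.8% in EA45 and 51.7% in TMZ600, 2.14 percentage points below the combinations on average (exact permutation test, two-sided, p = 0.4).

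Of the 30 named transcripts called against the controls, 22 lay beyond all controls on the same side in all 3 single agents as well, in CPM of all counts: 28 in EA30, 30 in EA45 and 23 in TMZ600. Over all 604 tested transcripts it was 159 (26.3%), and 119 of the 229 whose groups do not overlap. The controls are shared and the transcripts were picked by their distance from them, so the 22 say nothing of a shared effect. No test of the single agents against the controls was made here. MIR210HG had 35 counts in EA30, 11 in EA45 and 24 in TMZ600, SOX4 507, 142 and 535, and LINC00668 301, 662 and 83. PCDH7, TALDO1, MYDGF, LRGUK, C9orf72, TLE6 and LINC03032 did not lie beyond the controls in TMZ600, nor did C9orf72 and FZD7 in EA30. C9orf72 had 3 counts in EA30, 31 in EA45 and 5 in TMZ600.

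Promoters from 250 bases before to 50 after the start in the RefSeq promoter table, 1 per gene and not always that of the counted transcript, were searched on both strands for TCF/LEF (CTTTGAT), CRE (TGACGTCA), the E-box (CACGTG), the hypoxia core (ACGTG, which every E-box of this form contains) and C/EBP-ATF (TTGCATCA). The hypoxia core was in 6 of 21 promoters of genes that fell (28.6%), 3 of 19 of genes that rose (15.8%), 92 of 349 tested (26.4%) and 5900 of 27305 in the RefSeq table (21.6%). In the stretches alone it was in 3 of 9 that fell (33.3%), 3 of 12 that rose (25.0%) and 28 of 102 tested (27.5%). The E-box was in 2 of 21, 2 of 19, 30 of 349 and 2030 of 27305 (9.52, 10.5, 8.60 and 7.43%). TCF/LEF was in 0 of 21 and 1 of 19 (2.58% of tested, 2.64% of all), CRE in neither (2.58% and 1.98%) and C/EBP-ATF in 1 of 21 and 0 of 19 (0.86% and 0.923%). These shares are descriptions, and a match is not a bound site. The promoters of MIR210HG, DLGAP1-AS2 and TLE6 are shown because they belong to the named genes of the stretches with the largest changes that hold a searched motif; capitals mark the hypoxia core or the E-box, sequences are from RefSeq on GRCh38.p14, 5′ to 3′ on the gene's strand, at chr11:568408-568707 (minus), chr18:3603487-3603786 (plus) and chr19:2977314-2977613 (plus).
MIR210HG: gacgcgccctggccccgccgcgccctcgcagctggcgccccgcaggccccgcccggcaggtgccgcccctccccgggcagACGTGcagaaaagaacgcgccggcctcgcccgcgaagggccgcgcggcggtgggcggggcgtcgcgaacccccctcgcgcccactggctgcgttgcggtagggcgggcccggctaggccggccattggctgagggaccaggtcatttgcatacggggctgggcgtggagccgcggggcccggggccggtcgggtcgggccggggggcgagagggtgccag
DLGAP1-AS2: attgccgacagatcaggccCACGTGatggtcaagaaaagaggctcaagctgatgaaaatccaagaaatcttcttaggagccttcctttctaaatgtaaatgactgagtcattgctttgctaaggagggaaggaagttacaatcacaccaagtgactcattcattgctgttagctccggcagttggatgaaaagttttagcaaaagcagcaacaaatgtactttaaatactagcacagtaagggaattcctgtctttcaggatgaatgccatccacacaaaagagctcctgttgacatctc
TLE6: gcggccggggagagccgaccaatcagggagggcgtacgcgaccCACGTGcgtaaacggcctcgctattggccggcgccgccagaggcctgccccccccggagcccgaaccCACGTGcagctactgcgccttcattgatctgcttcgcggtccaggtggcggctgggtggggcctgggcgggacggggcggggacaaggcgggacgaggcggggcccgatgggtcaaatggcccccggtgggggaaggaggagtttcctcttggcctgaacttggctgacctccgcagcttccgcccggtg

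MIR210HG holds a single hypoxia core and no E-box, DLGAP1-AS2 an E-box near the far end of the window, and TLE6 an E-box in 2 places. The TLE6 window is set on a start inside the gene's RefSeq span, and which transcripts use it was not determined.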

How the data were processed

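RNA was made into libraries with the QuantSeq 3′ kit, sequencing was done by a core facility, and the authors deposited a table of raw counts per RefSeq accession, not normalized; the submitters' processing notes name HISAT2, HTSeq and hg38, with no versions, and the counting settings are not given in the sources used here. Symbols and positions came from RefSeq (GRCh38.p14): 57755 accessions matched with their version, 56301 without it and 45011, with 4.63% of counts, not at all. Samples were grouped by their labels. The test took transcripts averaging 10 or more counts across the compared samples and was made with edgeR 4.0.16 in R 4.3.3 (TMM, quasi-likelihood F-test, Benjamini-Hochberg, threshold 0.05). Of named transcripts with a call, MIR210HG, ADCY5, ANXA2R, PDK3, SLC22A20P, TLE6 and ZC3H11B averaged under 10 counts in the combinations. C9orf72, DLGAP1-AS2, LINC03032, LRGUK and the predicted transcript of LURAP1L did so in the controls. These passed the filter only through the group where they were high. The SE beside an edgeR log2 fold change is the size of that fold change divided by the square root of its F statistic. It is thus no separate estimate from the test. Log2 ratios of single samples used a prior count of 2. DESeq2 1.42.0, limma 3.58.1, other filters and left-out samples were alternatives. Fits were tested on simulated data with 200 changed transcripts. Python 3.11.15 ran pandas 2.3.3, numpy 2.4.6, scipy 1.17.1 for exact tests and matplotlib 3.10.9 for plots. Wilson intervals and floors of 3 counts cover counting error only.

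Named genes were the 12 largest rises and 12 largest falls among called transcripts with a symbol and groups that do not overlap, 1 transcript per symbol, the 6 most abundant nuclear transcripts called, and every tested member of the lists Wnt pathway, DNA repair, mitosis, tubulins and p53 targets. Members and lists were chosen with earlier results of these data known; the 6 stretches, the core machinery genes and the fit on the stretches and mitochondrial genome alone were chosen after seeing the data. Before them, other measures of position were looked at: the share of counted genes within 2 Mb, the number counted among the 10 nearest genes, bins of 4 Mb (values not given) and a wider list of core genes. In the wider list 13 of 18 genes in the stretches and 5 of 259 elsewhere had 100 or more counts. Neighbours separated less: a median of 4 of 10 (1 to 7) around tested transcripts of the stretches and 1 (0 to 5) elsewhere, or 33.3% and 7.14% within 2 Mb, with overlapping ranges. The neighbours of a gene were the 10 nearest genes with a single coding accession within 5 Mb.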

Additional observations from a re-analysis of the deposited data

How the results depend on the processing

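No paired analysis was possible because only the controls carry replicate numbers. The number of transcripts called against the controls stayed between 50 and 105 with other tools, scalings and filters. It was 39 of 143 tested (24 higher, 15 lower) in the mitochondrial genome and the 6 stretches alone, an alternative chosen after seeing the data that tests fewer transcripts; all 33 calls made there in the fit of all transcripts remained. Leaving out each sample in turn gave 24 to 99; why the controls matter more was not tested. Against the single agents 0 were called throughout (leave-outs 0 to 0), except 1 without the filter, POM121L9P with 45 counts in EA20TMZ380 and 0 elsewhere, and 3 in the stretches and mitochondrial genome. Groups that do not overlap numbered 454 without the filter, 146 under a minimum mean of 50 and 67 in the stretches and mitochondrial genome, where more or fewer transcripts were tested; the leave-outs gave 255 to 330. The difference in mitochondrial share ranged from 7.41 to 9.31 percentage points over the leave-outs, was 8.14 over transcripts passing the filter and 10.4 without COX3. Of 30 named transcripts called, 14 kept the call in every alternative that tested them and 16 lost it in at least 1. Among the kept, some were not tested without each control. ZC3H11B had too few counts when any 1 of the controls was left out, SLC22A20P without control 2 or control 3, and ADCY5 without control 1 or control 3. Of 11 not called, 2 gained the call (TUBB6 and TCF7L1). No named transcript with a call changed direction.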
